A study of Mus musculus with 6 samples.

Results

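Horizontal cells are the interneurons whose dendrites and axon terminals contact photoreceptor terminals in the outer plexiform layer, where they collect input and feed it back onto cones and rods. In the mouse they are among the first retinal neurons to leave the cell cycle, during embryonic life, and reach their layer by migrating through the retina. *Foxn4* and *Ptf1a* act early in the lineage that horizontal and amacrine cells share, the Onecut factors and *Prox1* promote the horizontal fate, and *Lhx1* is a LIM-homeodomain factor that horizontal cells need to reach their layer.

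Here horizontal cells were defined by their own counts, so the genes that chose them are not findings. Among kept cells, meaning barcodes with more than 300 genes and at most 15% mitochondrial UMIs (unique molecular identifiers, counts of captured transcripts), a member had 1 or more UMI of *Lhx1*, 1 or more of *Onecut1* plus *Onecut2*, and 0 UMIs of *Pou4f1* and *Pou4f2* (ganglion cells), *Mki67* (dividing cells) and *Nr2e3* (rods). This gave 170 of 58275 kept cells. The cells were live (DAPI-sorted) suspensions of papain-dissociated neurosensory retina from pooled retinas of wild-type C57BL/6J mice, profiled by droplet 3′ RNA sequencing, with no transgene or treatment in any group. The ages E14, E16, P0 and P6 had 1 library and P3 had a pair (P3 replicate 1, P3 replicate 2), so a library is the unit of replication, the P3 pair alone shows the spread at 1 age, and mice within a pool cannot be told apart. The labels do not say whether the P3 pair came from separate litters.

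The kept cells of a library held 32621193 to 107496590 UMIs, with a median of 4006 to 8373 per cell. E16 and P3 replicate 2 stood apart: they were counted on an older annotation, held 2971 and 3238 kept cells against 10427 to 15716 elsewhere, and carried marker RNA of other types in many cells. *Pou4f1* was seen in 45.7% of E16 and 18.8% of P3 replicate 2 kept cells, against 0.439% in P3 replicate 1, and *Nr2e3* in 56.1% of P3 replicate 2 cells against 29.1% in P3 replicate 1. The part of free RNA in these shares was not tested. No pair of libraries shared more than 0.673% of the smaller library's barcodes.

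*Lhx1* lies at chr11:84518284-84525535 on the minus strand (GRCm38), and its divergent neighbour *Lhx1os*, a lincRNA at chr11:84525660-84535831 on the plus strand, starts 125 bases away with no overlap between the gene bodies. *Lhx1os* was the gene with the largest fold between horizontal and other cells, so the 124 bases between both starts (RefSeq, GRCm38.p6, chr11:84525536-84525659, minus strand, intergenic) are shown with a CCAAT box, read as ATTGG on this strand, in capitals.
Lhx1 to Lhx1os: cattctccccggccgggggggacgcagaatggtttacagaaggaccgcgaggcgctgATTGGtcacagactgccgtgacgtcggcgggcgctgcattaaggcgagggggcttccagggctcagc
The gene that differed most between postnatal and embryonic horizontal cells was *Pyy*, and the 250 bases before its first start (RefSeq, GRCm38.p6, chr11:102107833-102108082, minus strand) hold a CCAAT box and a TATA box (TATAA), both in capitals.
Pyy: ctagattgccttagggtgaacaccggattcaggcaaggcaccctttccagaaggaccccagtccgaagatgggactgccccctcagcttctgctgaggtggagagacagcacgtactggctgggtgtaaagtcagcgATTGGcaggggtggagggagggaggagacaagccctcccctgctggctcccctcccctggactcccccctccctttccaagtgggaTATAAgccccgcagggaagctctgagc
CCAAT occurs on either strand in 33.9% of 32851 promoters of 250 bases and TATAA in 22.8%, so such matches are common. A Onecut core (ATTGAT, in 6.72% of promoters) and a homeodomain core (TAATTA, in 4.84%) were searched on both strands and were in neither stretch.

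Horizontal cells were a small share of every library that held them. E14 held 126 among 15716 kept cells (0.802%, exact 95% Clopper-Pearson interval 0.668 to 0.954) and E16 held 11 among 2971 (0.370%, 0.185 to 0.662). P0 held 20 among 10427 (0.192%, 0.117 to 0.296), and P3 replicate 2 held 13 among 3238 (0.402%, 0.214 to 0.686). P3 replicate 1 held 0 of 12305, which allows a share of up to 0.0244% (3 counts of the total), and P6 held 0 of 13618, which allows up to 0.0220%. The P3 pair therefore differed by more than counting error at the same age, and no change with age was read from the shares. These intervals and floors cover counting error only.

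*Lhx1* was the limiting gene of the rule. In age order, with P3 replicate 1 before P3 replicate 2, it was seen in 181, 69, 31, 3, 76 and 2 cells, whereas a Onecut UMI was present in 43.4%, 59.98%, 19.0%, 17.8%, 43.6% and 16.7% of kept cells. Of cells with both, the 4 excluded genes removed 47 of 173 at E14 and 5 of 25 at P0, but 52 of 63 at E16 and 57 of 70 in P3 replicate 2. *Mki67* was among the excluded genes in 46 of the 52 at E16, and *Nr2e3* in 50 of the 57 in P3 replicate 2. The members of these libraries are thus the 11 and 13 double-positive cells that carried none of the excluded RNAs.

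**Figure D1:**
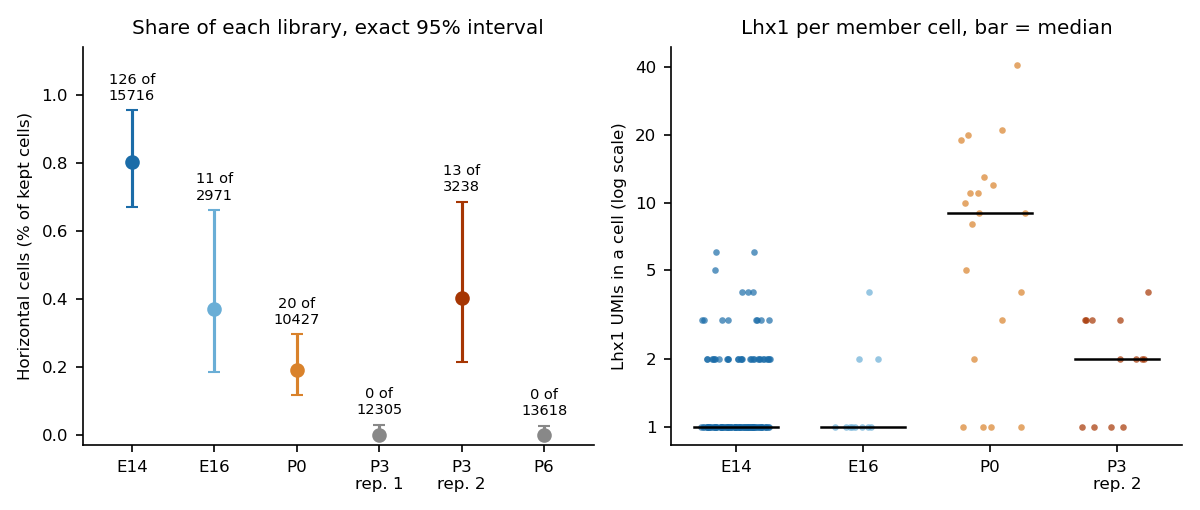
Left, horizontal cells as a percentage of kept cells in each library, with exact 95% intervals. Right, *Lhx1* UMIs in each member on a log axis, with bars at the medians. E14 has the highest share, 0.802%, P3 replicate 1 and P6 hold no member, and *Lhx1* is at 1 UMI in 84 of 126 E14 cells and reaches 41 at P0.

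Members sat close to the threshold at E14 and well above it at P0. *Lhx1* ranged from 1 to 6 UMIs per member at E14 (median 1), from 1 to 4 at E16 (median 1), from 1 to 41 at P0 (median 9) and from 1 to 4 in P3 replicate 2 (median 2), and a single UMI made the cell a member in 84 of 126, 8 of 11, 4 of 20 and 4 of 13 cells. *Onecut2* was present in 126 of 126, 11 of 11, 19 of 20 and 13 of 13 members. *Onecut1* was present in 100, 0, 16 and 4 of them, so it was not seen in any E16 member. Just outside the rule lay the cells with *Lhx1* and no Onecut UMI, 8, 6, 6, 3, 6 and 2 in the order E14, E16, P0, P3 replicate 1, P3 replicate 2 and P6. Members were shallower than other cells at E14 (median 3247 against 5446 UMIs) and deeper at P0 (8274 against 5651).

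Genes that the rule did not read were then set against the rest of each library. Levels are given as CPM, the UMIs of a gene divided by all UMIs of a group's cells in a library and scaled to counts per 1e+06, in the order E14, E16, P0 and P3 replicate 2. The sums were tested by quasi-likelihood in edgeR, blocked by library and adjusted over all genes by Benjamini-Hochberg, and log2 fold changes are given with their standard errors. A library entered with 20 members, which left E14 and P0 and 1 residual degree of freedom, so the spread of each gene was largely borrowed from other genes. A test with 10 members, which adds E16 and P3 replicate 2, is given for the gene lists and for some named genes. Of 14030 genes, 487 (3.47%) were higher and 980 (6.99%) lower in horizontal cells than in other kept cells, and the median log2 fold change was −0.20. The test with 10 members gave 247 higher and 497 lower of 12830 genes. Against other cells that also lacked the excluded genes, 340 were higher and 584 lower of 12925.

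Markers of horizontal cells that the rule had not used were higher in its members. Of 14 such markers 13 could be tested, and 10 were higher and 0 lower, with a median log2 fold change of 2.55. With 10 members per library 8 were higher, and against other cells that also lacked the 4 excluded genes 9 were. Their summed level was 2672, 837, 5754 and 6747 CPM in horizontal cells against 358, 367, 742 and 928 CPM in other cells. It was lowest at E16, where 4 of the 11 members held 75.5% of all UMIs of the members.

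These 4 cells had 19290 to 48596 UMIs and 1 *Lhx1* UMI each, against 4953 to 8662 UMIs in the other 7, and *Top2a* was in all 4 of them and in 1 of the 7. Every level given for E16 members is divided by a UMI total to which these 4 cells contribute most. They held 10 of the 55 *Tfap2b* UMIs and 5 of the 17 *Prox1* UMIs, but 38 of the 40 *Top2a* UMIs. Over the 7 members under 10000 UMIs, a limit chosen after seeing the data, *Tfap2b* was at 994 CPM, *Prox1* at 265 CPM, *Onecut3* at 133 CPM, *Ptf1a* at 155 CPM, *Tfap2a* at 133 CPM, *Nefm* at 420 CPM and *Top2a* at 44.2 CPM, and over the 4 deeper cells *Tfap2b* was at 71.9 CPM, *Prox1* at 35.9 CPM and *Top2a* at 273 CPM.

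*Tfap2b*, an AP-2 factor of amacrine and horizontal precursors, was among the highest of these. It stood at 1194, 299, 1446 and 1342 CPM in horizontal cells and at 22.2, 80.7, 262 and 328 CPM in other cells. Every library had the higher level in its members, and the log2 fold change was 3.92 ± 0.26 (adjusted p = 1.3e-47). After each cell was thinned to 2000 UMIs, *Tfap2b* was seen in 80.5% of E14 members (95% interval 72.2 to 87.2) against 3.53% of other cells, and in 19 of 20 P0 members (75.1 to 99.9%) against 16.3%.

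*Prox1*, a homeobox factor needed for the horizontal fate, stood at 264, 92.4, 462 and 617 CPM in horizontal cells and at 21.5, 27.3, 59.0 and 46.9 CPM in other cells. Its log2 fold change was 3.098 ± 0.287 (adjusted p = 2.4e-24), and again no library went the other way. At least 1 UMI of *Prox1* or *Tfap2b* was found in 117 of the 126 E14 members and in every member of E16 (11), P0 (20) and P3 replicate 2 (13).

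*Onecut3*, the family member that the rule did not read, was low in other cells of every library. It reached 145, 38.1, 197 and 127 CPM in horizontal cells and 6.37, 2.96, 0.240 and 1.201 CPM in other cells, a log2 fold change of 6.35 ± 0.44 (adjusted p = 1.6e-44). At 2000 UMIs per cell it was seen in 27.1% of members and 1.27% of other cells at E14, and in 35.0% against 0.00987% at P0.

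*Ptf1a* and *Tfap2a*, lineage factors that horizontal cells share with amacrine cells, had their highest levels in the members of E14. *Ptf1a*, which biases precursors to these fates, stood at 309, 48.9, 55.4 and 0 CPM in horizontal cells and 19.1, 34.2, 34.5 and 12.6 CPM in other cells (log2 fold change 2.55 ± 0.37, adjusted p = 4.3e-10). *Tfap2a* stood at 205, 32.6, 73.9 and 18.1 CPM against 2.50, 12.3, 61.6 and 62.2 CPM, and its call (3.50 ± 0.45, adjusted p = 9.3e-13) was lost with 10 members per library (adjusted p = 0.10) and past the threshold again when E16 was also left out. For both genes the members stood furthest above other cells at E14. *Foxn4*, which acts before *Ptf1a*, was lower in members, at 4.26, 76.1, 0 and 0 CPM against 47.3, 70.1, 37.0 and 26.0 CPM (log2 fold change −4.05 ± 0.77, adjusted p = 5.0e-06).

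*Calb1*, *Gja10* and *Slc12a7*, markers of later horizontal cells, were low or absent. *Calb1*, encoding calbindin, was at 0, 0, 30.8 and 54.4 CPM in horizontal cells, from 5 UMIs of 1 cell at P0 and 3 UMIs in P3 replicate 2, and was not called (log2 fold change 1.79 ± 1.34, adjusted p = 0.56), but passed with 10 members per library and without E16. *Gja10*, a gap junction gene of horizontal axon terminals, had 1 UMI in all members. *Slc12a7*, a chloride exporter, was also not called, at 4.26, 5.44, 0 and 0 CPM. *Sept4* stood at 6.40, 38.1, 117 and 581 CPM against 16.9, 23.4, 33.5 and 49.4 CPM, below other cells at E14 and above them in the remaining libraries, and was not called with E14 and P0 (adjusted p = 0.73). With 10 members per library it was called when E14 or E16 was left out, and not with all 4 libraries (adjusted p = 0.057).

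**Figure D2:**
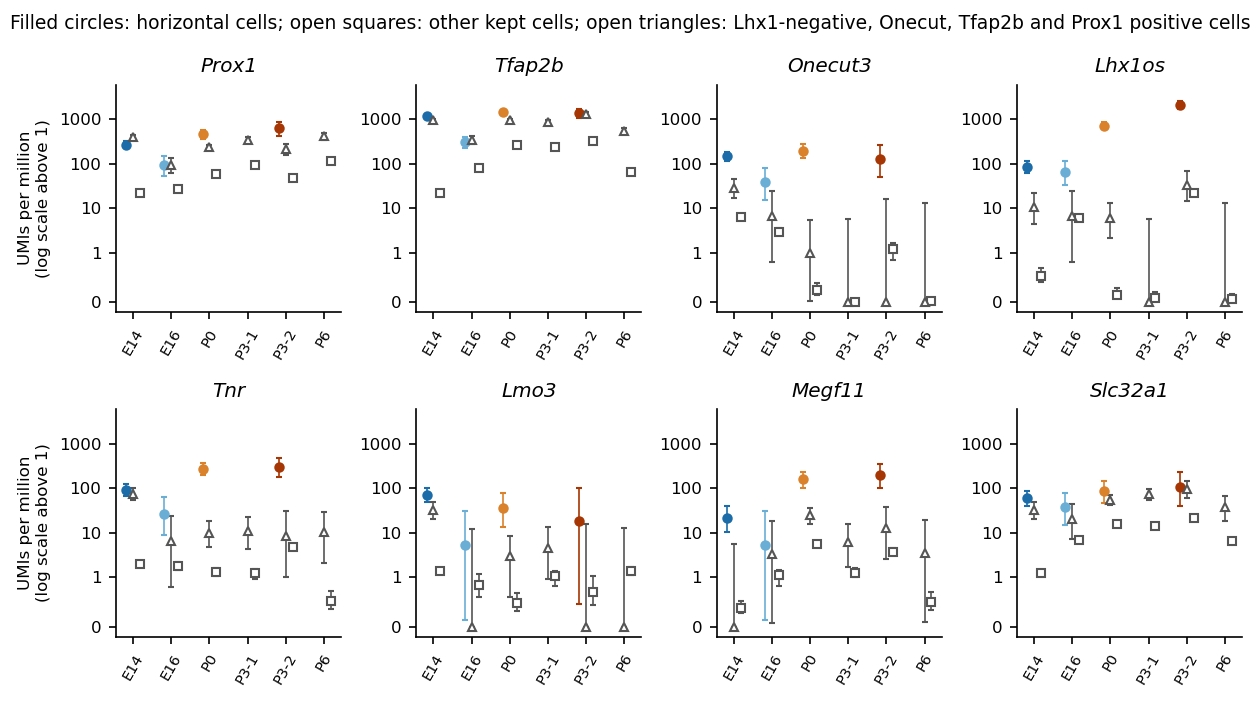
Levels of 8 genes in CPM (log scale above 1) in horizontal cells (filled circles), other kept cells (open squares) and cells with Onecut, *Tfap2b* and *Prox1* but no *Lhx1* (open triangles, chosen by the first 3 of these), with exact Poisson intervals. P3-1 and P3-2 are P3 replicate 1 and P3 replicate 2. Horizontal cells stand above other cells for *Tnr* in all 4 libraries with members, at 27.2 CPM or more against 4.93 CPM or less. Its direction at E14 and P0 was a condition for naming it.

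Markers of other cell types were checked in the same sums. Microglial markers were at 0 in all 4 member sums and red cell markers at 0 except for 19.2 CPM at E14, and bipolar and astrocyte markers did not exceed 16.3 CPM. Genes of progenitors and glia summed to 663, 2876, 400.1 and 508 CPM in members and to 5509, 3897, 4834 and 2992 CPM in other cells, and cell cycle genes to 209, 804, 123 and 290.2 CPM against 1974, 1039, 2033 and 1006 CPM. The E16 members stood nearest to the level of their library: *Neurog2* was in 8 of 11, *Isl1* in 6 of 11 and *Top2a* in 5 of 11 of these cells. The 11 cells enter only where 10 members sufficed. In that test 247 genes were higher and 497 lower than in other kept cells, and 435 and 867 when E16 was left out. Cell cycle genes (0 higher, 7 lower of 7 tested), progenitor and glial genes (0 and 8 of 10), neurogenic precursor genes (0 and 5 of 8) and ganglion markers (0 and 6 of 10) held lower genes, and the rule itself excluded cells with *Mki67*, *Pou4f1* or *Pou4f2*. Against other cells that also lacked the excluded genes the counts were 0 and 7 of 7, 0 and 9 of 10, 0 and 5 of 8, and 1 and 5 of 10 in the same order. Over all genes that comparison called 340 higher and 584 lower of 12925. Photoreceptor markers (0 of 7) and bipolar, microglial and astrocyte markers (0 of 3, 0 of 3 and 0 of 2) were called in neither direction, vascular markers 1 each way of 3, and red cell markers 0 and 3 of 3.

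The genes with the largest folds were led by *Lhx1os* and by a matrix protein. *Lhx1os* stood at 85.3, 65.2, 714 and 2086 CPM in horizontal cells and at 0.536, 5.99, 0.150 and 21.9 CPM in other cells (log2 fold change 9.28 ± 0.41, adjusted p = 4.5e-105). It was carried by 34 of 126, 7 of 11, 14 of 20 and 13 of 13 members, so its detection was least frequent at E14, where *Lhx1* itself was at 1 UMI in most cells. Membership required a UMI of the gene that starts beside it, so this fold is not independent of the rule.

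*Tnr* encodes tenascin-R, an extracellular matrix glycoprotein of the nervous system. It stood at 93.8, 27.2, 271 and 308 CPM in horizontal cells and 1.97, 1.81, 1.35 and 4.93 CPM in other cells, with 44, 5, 44 and 17 UMIs behind the members' levels. All 4 libraries had the higher level in members, and the log2 fold change was 6.37 ± 0.42 (adjusted p = 2.6e-47). A leader was named only with the same direction at E14 and P0, so only E16 and P3 replicate 2 could have differed. At 2000 UMIs per cell *Tnr* was seen in 15.3% of E14 members against 0.545% of other cells and in 45.0% of P0 members against 0.227%.

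*Pmfbp1* and *Lmo3* had their highest levels at E14. *Pmfbp1* stood at 256, 10.9, 61.5 and 0 CPM against 3.50, 1.61, 1.23 and 0.585 CPM in other cells (log2 fold change 5.80 ± 0.44, adjusted p = 2.0e-36), highest at E14 and without a UMI in P3 replicate 2. *Lmo3*, a LIM-only cofactor of transcription, stood at 72.5, 5.44, 36.9 and 18.1 CPM against 1.39, 0.849, 0.480 and 0.708 CPM (5.70 ± 0.77, adjusted p = 1.9e-11). Neither was called between stages.

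The other named leaders were sparse, and their standard errors were above 0.6. *Megf11*, a cell-surface protein that spaces horizontal cells into a mosaic, stood at 21.3, 5.44, 160.0 and 199.5 CPM against 0.386, 1.12, 5.60 and 3.79 CPM in other cells (log2 fold change 5.01 ± 0.65, adjusted p = 1.9e-12). Its partner *Megf10* was at 0, 5.44, 123 and 54.4 CPM against 1.66, 6.08, 14.5 and 14.2 CPM, and its call (2.08 ± 0.72, adjusted p = 0.038) was lost with 10 members per library (adjusted p = 0.15) and past the threshold again when E16 was also left out. In both genes the levels of the members were highest in the postnatal libraries, and at E14 *Megf10* had no UMI. *Shisa9*, *Gm32647*, *Prkg2*, *Chst9*, *Alk*, *Pappa2*, *Fam189a1*, *Pnmt* and *9530059O14Rik*, all higher with log2 fold changes between 4.92 and 6.21, reached at most 92.3 CPM in the members of E14 or P0.

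On the low side, the 10 named genes had no UMI in the members of E14 or P0, so only bounds are given, from a floor of 3 counts per library (6.40 CPM at E14 and 18.5 CPM at P0). *Ckap2l*, a spindle gene, was at 67.6 CPM in other cells at E14, at least 10.6-fold higher, and at 79.7 CPM at P0, at least 4.32-fold higher. *Aldh1a3*, a retinoic acid synthesis enzyme, was at 65.5 and 57.1 CPM, at least 10.2-fold and 3.09-fold higher. *Tagln2* was at 31.4 and 90.6 CPM, at least 4.91-fold higher at both ages. *Melk*, *Wee1*, *Ncapg2*, *Bub1*, *Pawr*, *Kif2c* and *Bcl2l12* made up the rest, and 6 of the 10 are cell cycle genes. The rule excluded cells with *Mki67*.

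Of the inhibitory transmitter genes, *Slc32a1* had the largest fold. Horizontal cells release GABA, which *Gad1* and *Gad2* make and *Slc32a1* loads into vesicles. *Slc32a1* stood at 59.7, 38.1, 86.2 and 109 CPM in horizontal cells and 1.25, 6.93, 15.5 and 21.9 CPM in other cells (log2 fold change 3.88 ± 0.53, adjusted p = 4.0e-11), the higher level in each of the 4 libraries. *Gad1* was at 2.13, 0, 105 and 127 CPM against 0.0376, 1.26, 16.7 and 14.4 CPM (2.69 ± 0.80, adjusted p = 0.010), with 1 UMI in all embryonic members. *Gad2* was at 119, 59.8, 92.3 and 36.3 CPM against 18.9, 36.9, 87.5 and 33.8 CPM (1.33 ± 0.36, adjusted p = 0.0038), and its call was lost with 10 members per library (adjusted p = 0.18). Of the 7 genes of GABA handling, 3 were higher and 0 lower. Against other cells without the excluded genes *Slc32a1* alone was higher and 1 gene was lower.

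Neurofilament and cytoskeletal genes were 10 higher and 1 lower of 16, and 10 and 1 of 15 against other cells without the excluded genes. With 10 members per library 4 were higher. *Tpm3*, a tropomyosin that is also among the horizontal markers, stood at 390, 169, 2616 and 2920 CPM in horizontal cells and 234, 102, 152 and 84.0 CPM in other cells (log2 fold change 2.24 ± 0.25, adjusted p = 5.4e-17). *Dcx*, a microtubule protein of migrating neurons, stood at 435, 174, 714 and 871 CPM against 77.8, 104, 57.4 and 62.5 CPM (2.84 ± 0.26, adjusted p = 8.9e-25). *Nefm* was at 446, 125, 1059 and 961 CPM against 587, 138, 78.2 and 53.9 CPM (1.46 ± 0.27, adjusted p = 4.4e-06). Its sums were below other cells in the embryonic libraries and far above them at P0 and P3 replicate 2. In the 7 E16 members under 10000 UMIs *Nefm* was at 420 CPM, above the other cells of that library. *Vim*, the filament of progenitors, was the lower gene.

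Contact and guidance genes were higher in 7 of 15 tested and lower in 0 (5 with the excluded genes removed from the comparison cells, and 5 with 10 members per library). *Plxna4*, a semaphorin receptor, stood at 19.2, 16.3, 197 and 199.5 CPM in horizontal cells and 1.50, 1.95, 8.11 and 6.50 CPM in other cells (log2 fold change 4.01 ± 0.57, adjusted p = 1.6e-10). *Robo2*, the receptor of *Slit2*, was at 218, 81.5, 455 and 254 CPM against 88.4, 94.8, 107 and 102 CPM (1.48 ± 0.27, adjusted p = 1.3e-06), and *Slit2* itself at 166, 38.1, 98.5 and 90.7 CPM against 28.9, 25.4, 31.8 and 26.5 CPM (1.95 ± 0.36, adjusted p = 1.9e-06). *Plxna4* and *Slit2* were higher in members of all 4 libraries, and *Robo2* in 3, being lower at E16.

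Some synaptic and channel genes were higher in horizontal cells. Of 13 synaptic vesicle genes 6 were higher and 0 lower, and 3 were higher against cells without the excluded genes. With 10 members per library 3 were higher, and without E14 none of 13 synaptic vesicle and none of 12 glutamate receptor genes was called. *Snap25*, part of the vesicle fusion machinery, stood at 122, 141, 708 and 853 CPM against 52.8, 139.7, 116 and 322 CPM (log2 fold change 1.73 ± 0.27, adjusted p = 1.4e-08). Of 14 potassium and sodium channel and pump genes 5 were higher and 0 lower, and 3 were higher with 10 members per library. Of 13 glutamate receptor genes, through which horizontal cells read photoreceptors, *Gria2* and *Gria3* were higher: *Gria2* was at 126, 43.5, 111 and 90.7 CPM against 14.0, 19.4, 50.7 and 55.4 CPM (2.06 ± 0.37, adjusted p = 1.2e-06). None of 5 gap junction genes was called, and the summed level of the 7 genes of that list was 104.5, 48.9, 86.2 and 72.6 CPM in members against 134, 89.7, 98.5 and 79.2 CPM.

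Factors of horizontal and amacrine genesis were higher in 6 and lower in 4 of 20, the higher ones *Ptf1a*, *Pax6*, *Barhl2*, *Lmo4*, *Sox4* and *Sox11*, and in 3 and 4 with 10 members per library. Of 8 calcium-binding genes *Ncald* was higher and *Hpcal1* lower, and neither with 10 members per library or by DESeq2. Amacrine markers were higher in 4 and lower in 1 of 8, in 1 and 1 with 10 members per library and in 0 and 0 by DESeq2. All 12 ribosomal protein genes were lower, with a median log2 fold change of −0.86, but none was called with 10 members per library, all 12 were when E16 was also left out, and their sums were 23030, 58500, 19600 and 23220 CPM in members against 37630, 50480, 30250 and 37180 CPM in other cells, so E16 went the other way. Of 11 dissociation response genes 5 were lower, including *Fos* at 2.13, 0, 18.5 and 18.1 CPM against 5.04, 12.5, 202 and 124 CPM. With 10 members per library 4 of 9 were lower, and by DESeq2 0 of 11. Of 10 mitochondrial and oxidative genes 1 (*Ckb*) was lower.

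**Figure D3:**
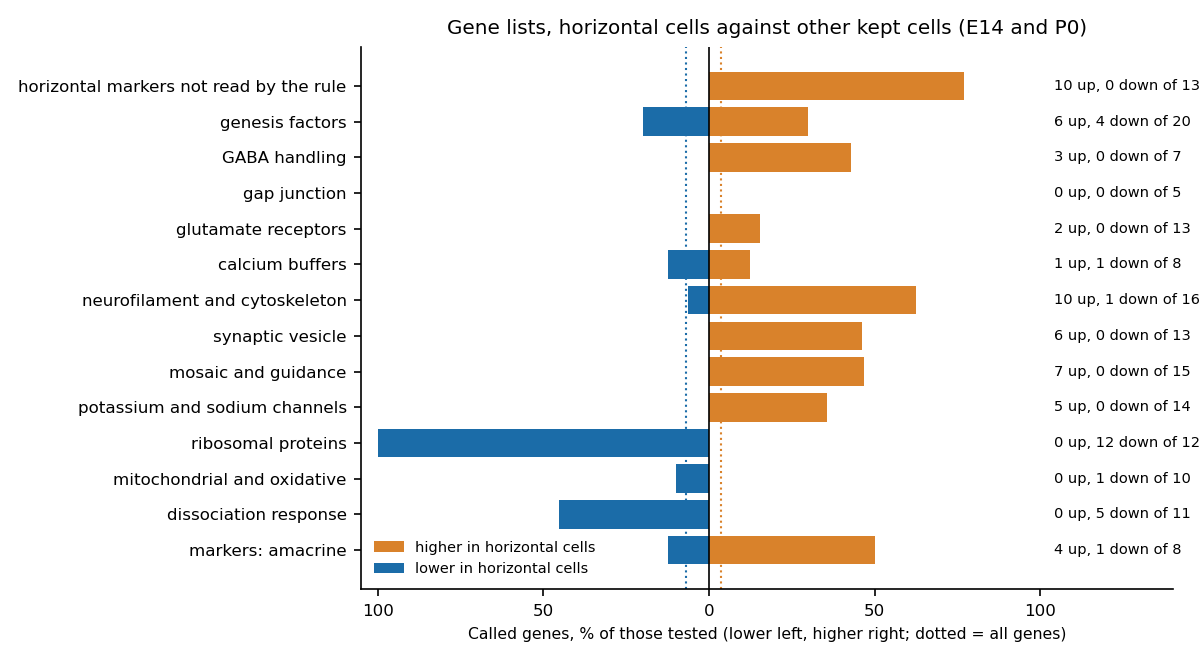
Percentage of each gene list's tested members that were called higher (to the right) or lower (to the left) in horizontal cells than in other kept cells, with counts at the side and dotted lines at the percentages over all genes, 3.47 and 6.99. Horizontal markers are at 10 of 13 higher and ribosomal protein genes at 12 of 12 lower.

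Amacrine cells, the nearest relatives of horizontal cells, were taken as cells with *Tfap2b* and none of the 7 genes of the rule (2742 cells). Of 4966 genes tested 45 (0.906%) were higher and 36 (0.725%) lower in horizontal cells, and no gene passed without the library block. With 10 members per library 17 were higher and 3 lower. The genes shared between both types, such as *Ptf1a* (log2 fold change −0.19 ± 0.40), *Slc32a1* (0.74 ± 0.52) and *Tfap2a* (0.05 ± 0.66), were not called, which does not show equal levels. Of 7 tested horizontal markers 2 were higher, *Prox1* (3.49 ± 0.41, adjusted p = 3.0e-05) and *Onecut3*.

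*Onecut3* stood at 12.6, 2.22, 0.501 and 0.801 CPM in the amacrine gate, against 38.1 to 197 CPM in horizontal cells (log2 fold change 7.35 ± 0.81, adjusted p = 1.2e-05). *Tnr* was at 0, 8.89, 3.50 and 8.81 CPM there (6.27 ± 0.60, adjusted p = 1.5e-06), and *Lhx1os* had no UMI in the gate at E14, E16 or P0. *Lmo3*, *Gm32647* and *Pmfbp1* were the other leaders already given. *Sdk2*, an adhesion molecule of synaptic layers, stood at 46.9, 27.2, 129 and 36.3 CPM in horizontal cells and 0, 11.1, 7.68 and 9.61 CPM in the amacrine gate (4.14 ± 0.65, adjusted p = 9.8e-04), and the guidance ligand *Sema6d* at 46.9, 21.7, 92.3 and 109 CPM against 0, 8.89, 6.17 and 2.40 CPM (3.995 ± 0.730, adjusted p = 0.0035). Both were higher in horizontal cells of all 4 libraries. The direction at E14 and P0 was a condition for naming them, so only E16 and P3 replicate 2 could have differed.

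Of 14 cytoskeletal genes tested against the amacrine gate, *Nefl*, *Nefm*, *Ina* and *Dcx* were higher and 0 were lower, and *Dcx* alone was called with 10 members per library. *Nefm* stood at 264, 64.4, 33.2 and 28.8 CPM in the amacrine gate and at 446, 125, 1059 and 961 CPM in horizontal cells (log2 fold change 2.91 ± 0.72, adjusted p = 0.037), and *Dcx* at 31.4, 39.99, 142 and 94.5 CPM against 435, 174, 714 and 871 CPM (2.73 ± 0.42, adjusted p = 8.3e-04). In the other direction *Trpm3*, *Espn*, *Slc2a1*, *Cox4i2*, *Fezf2*, *Kdr*, *Fgf15* and *Isl1* were lower in horizontal cells, and none of these 8 was called with 10 members per library, where *Trpm3* was not tested. *Isl1*, a LIM factor of starburst amacrine and ganglion cells, was at 25.6, 65.2, 0 and 0 CPM in horizontal cells against 94.2, 144, 272 and 126 CPM (−3.30 ± 0.64, adjusted p = 0.0066). The E16 direction was not that of the 7 E16 members under 10000 UMIs, where *Isl1* was at 265 CPM. At E14 9 of its 12 UMIs came from members at or over 10000 UMIs. Of 8 progenitor and glial genes 6 were lower than in the amacrine gate, although both gates excluded *Mki67*, and none was called with 10 members per library. The amacrine gate of E14 read *Sox2* at 201 CPM and *Ccnd1* at 2124 CPM, so it held progenitor RNA.

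Ganglion cells share Onecut genes with embryonic horizontal cells. They were taken as cells with *Pou4f1* or *Pou4f2* and no *Mki67* or *Nr2e3* (4216 cells). This gate held 1109 of 2971 kept cells at E16 and 376 of 3238 in P3 replicate 2, against 24 of 12305 in P3 replicate 1. How many of its cells were ganglion cells was not tested. Of 10406 genes tested 250 (2.40%) were higher and 497 (4.78%) lower in horizontal cells. Horizontal markers were higher in 9 of 12 and lower in 0, with *Tfap2b* at 17.95, 71.5, 55.5 and 281 CPM in the ganglion gate (log2 fold change 5.25 ± 0.25, adjusted p = 3.7e-90). The same leaders recurred, and *Ptprt*, a receptor phosphatase of synapses, stood at 21.3, 0, 240.0 and 54.4 CPM against 0.450, 3.83, 3.53 and 14.8 CPM (5.71 ± 0.58, adjusted p = 2.4e-20). GABA handling genes were higher in 3 and lower in 1 of 5. Photoreceptor markers were higher in 3 of 6 (*Otx2*, *Gngt2* and *Thrb*) and lower in 0, and 2 were higher with 10 members per library. The source of this RNA in the members was not tested.

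The cytoskeletal list turned round against ganglion cells, with 1 gene higher and 11 lower of 15 (2 and 8 with 10 members per library). *Gap43*, a growth cone protein, was at 674, 277, 634 and 363 CPM in horizontal cells and 3898, 3891, 3913 and 1634 CPM in the ganglion gate (log2 fold change −2.72 ± 0.20, adjusted p = 2.0e-38). *Nefm* was at 2330, 514, 901 and 397 CPM in the ganglion gate (−1.24 ± 0.22, adjusted p = 1.0e-06), below horizontal cells in both postnatal libraries despite the call, which was lost with 10 members per library (adjusted p = 0.44). *Tpm3* was the gene that was higher, at 275, 189, 269 and 134 CPM in the ganglion gate (1.77 ± 0.23, adjusted p = 2.1e-12). Ganglion markers were lower in 9 of 10, where the gate itself required *Pou4f1* or *Pou4f2*, and *Mstn*, *Scn9a*, *Gm17750*, *Kctd12*, *Tfap2d*, *Pou4f3*, *Tac1* and *Rgs6* had no UMI in horizontal cells of E14 or P0. *Mstn*, for instance, was at 59.1 and 252 CPM in the ganglion gate at these ages.

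Embryonic and postnatal horizontal cells were compared over E14 and E16 against P0 and P3 replicate 2, with 10 members per library, because with 20 each stage keeps 1 library and no test exists. The ages within a stage differ, and each stage holds 1 library of each annotation. In the E16 sum 75.5% of the UMIs came from the 4 members at or over 10000 UMIs, all with *Top2a*. The embryonic side thus rests in part on these cells. Of 2997 genes 5 (0.167%) were higher and 1 (0.0334%) lower after birth, and 159 had an unadjusted p under 0.05. None of the lists had a called gene.

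*Pyy*, the gut peptide YY, was the clearest of them. It had 0 UMIs in 126 E14 and 11 E16 members, 292 UMIs in 9 of 20 P0 members (1797 CPM, exact Poisson interval 1597 to 2015) and 149 UMIs in 5 of 13 members of P3 replicate 2 (2703 CPM, 2286 to 3173). Against a floor of 3 counts over the 652993 embryonic UMIs, this is at least 391-fold higher at P0 and at least 588-fold higher in P3 replicate 2 (adjusted p = 0.0052). Within positive cells *Pyy* ranged from 2 to 103 UMIs at P0 (median 17) and from 2 to 87 in P3 replicate 2 (median 23), so its level differed widely between horizontal cells of 1 library. In other cells it was at 0, 0.0459, 0.0901 and 40.7 CPM, and P3 replicate 1 and P6, which held no members, had 0.0345 and 0 CPM. The 57 double-positive cells that the excluded genes removed from P3 replicate 2 had 635.5 CPM, with *Pyy* in 23 of them.

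The related neuropeptide *Npy* was at 0, 10.9, 80.0 and 3156 CPM in horizontal cells and 0.0470, 5.16, 39.6 and 125 CPM in other cells, and was not called (adjusted p = 0.10). It was in 12 of 13 members of P3 replicate 2 and 4 of 20 at P0, and the cells with both peptides were 4 at P0 and 5 in P3 replicate 2.

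*Sez6*, a complement-domain protein of neuronal dendrites, was at 6.40, 16.3, 523 and 581 CPM in horizontal cells and 2.13, 5.76, 5.38 and 22.9 CPM in other cells (postnatal minus embryonic log2 difference 5.42 ± 0.81, adjusted p = 0.026). Every *Pyy*-positive member also had *Sez6*, and 14 of 20 members at P0 and 12 of 13 in P3 replicate 2 had at least 1 of these genes. *Cacna2d3*, a calcium channel subunit, was at 8.53, 5.44, 271 and 163 CPM (4.59 ± 0.79, adjusted p = 0.034). *Tmod1*, which caps actin filaments, was at 4.26, 0, 117 and 399 CPM (5.94 ± 1.02, adjusted p = 0.034), and *Filip1l* at 4.26, 0, 160.0 and 218 CPM (5.54 ± 0.92, adjusted p = 0.034). A gene was named from this comparison only if its embryonic and postnatal levels did not overlap. The separation of these 4 genes, of *Pyy* and of *Cdkn1c* is therefore not a finding.

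*Cdkn1c*, the cell cycle inhibitor p57, was the gene that fell. It was at 947, 201, 12.3 and 0 CPM in horizontal cells and at 262, 179.7, 86.2 and 64.9 CPM in other cells (log2 difference −6.11 ± 1.04, adjusted p = 0.034). At E14 it was in 68 of 126 members, with up to 95 UMIs in 1 cell, and at P0 in 2 of 20. *Ptf1a* was also in 68 of the 126 E14 members, and both genes were present in 42.

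Without the cells called as doublets (4 members at E14 and 2 at P0) *Pyy* alone stayed past the threshold, at an adjusted p of 0.027, and the other 5 had 0.071 to 0.087. Leaving out a library gave 10 to 28 genes higher and 1 to 135 lower, and without a filter on low counts 34 were higher and 25 lower.

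**Figure D4:**
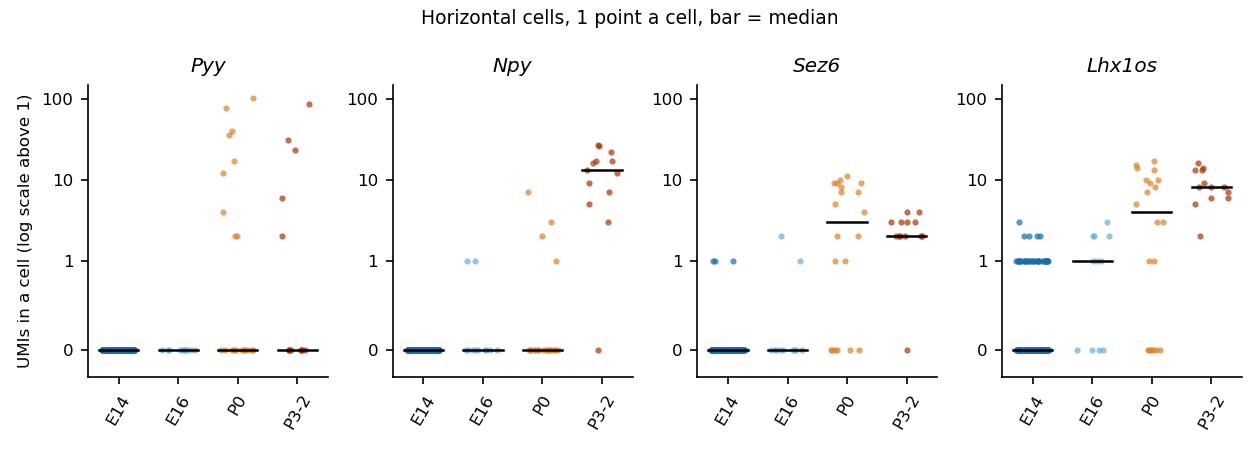
UMIs of *Pyy*, *Npy*, *Sez6* and *Lhx1os* in each horizontal cell (1 point a cell, log scale above 1) by library, with bars at the medians. P3-2 is P3 replicate 2. *Pyy* is in 9 cells of P0 and 5 of P3 replicate 2, and its median is 0 in every library.

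**Figure D5:**
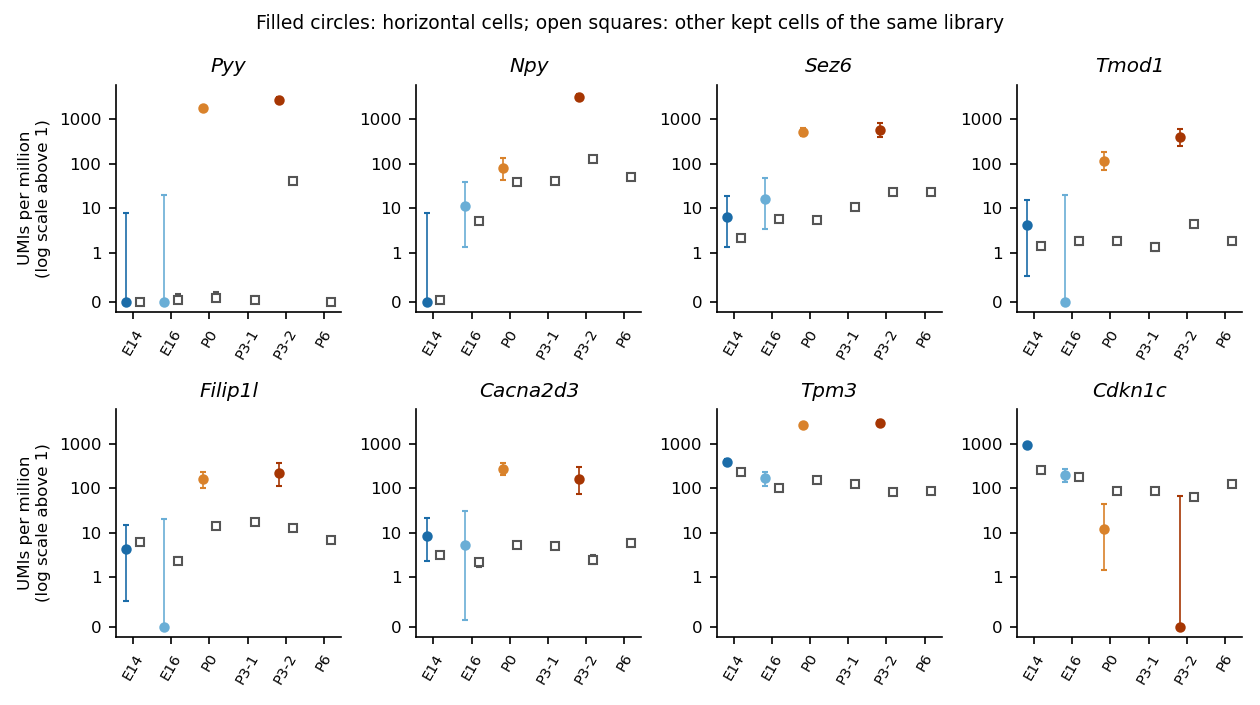
Levels of 8 genes in CPM (log scale above 1) in horizontal cells (filled circles) and other kept cells (open squares), with exact Poisson intervals. P3-1 and P3-2 are P3 replicate 1 and P3 replicate 2. *Npy* and *Tpm3* were not called between stages and the other 6 were. *Pyy* is at 0 in both embryonic libraries and at 1797 and 2703 CPM in P0 and P3 replicate 2.

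Whether a stage difference was that of the library as a whole was tested by the interaction of membership and stage. The same member sums entered, with the E16 sum drawn mostly from its few deepest cells. Of 13937 genes 30 (0.215%) had a larger and 40 (0.287%) a smaller postnatal minus embryonic difference in horizontal cells than in other cells, and no gene passed without the library block. *Tpm3* had an interaction of 3.60 ± 0.53 (log2, adjusted p = 4.9e-08), *Nefm* of 3.97 ± 0.54 (adjusted p = 1.7e-09) and *Nefl* of 3.50 ± 0.52 (adjusted p = 6.8e-08). In members all 3 stood higher at P0 and P3 replicate 2 than in either embryonic library. *Sez6* (3.86 ± 0.76), *Cacna2d3* (4.21 ± 1.05) and *Onecut3* (3.88 ± 0.76) also passed. For *Onecut3* the levels of the members overlapped between stages, with E14 above P3 replicate 2. Its level in other cells was lower at P0 and P3 replicate 2 than in either embryonic library. On the other side *Tfap2a* (−4.83 ± 0.76, adjusted p = 6.2e-07), *Cdkn1c* (−4.45 ± 0.86), *Meis2* (−3.22 ± 0.64) and *Calb2* (−6.24 ± 1.05, adjusted p = 5.8e-06) passed. *Calb2*, encoding calretinin, stood at 309, 16.3, 0 and 18.1 CPM in horizontal cells against 32.4, 69.4, 132 and 82.3 CPM, so the members were above the other cells at E14 and below them in the 3 later libraries.

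Sparse genes with large interactions were *Chst8* (6.61 ± 1.15), at 2.13, 10.9, 80.0 and 290.2 CPM in horizontal cells against 4.22, 3.28, 0.661 and 1.72 CPM, and the receptor gene *Gpr139* (7.98 ± 1.57), at 2.13, 0, 61.5 and 54.4 CPM against 2.26, 1.22, 0.165 and 0.493 CPM. *Vgf*, a secretory granule protein, was at 2.13, 0, 86.2 and 90.7 CPM against 1.58, 1.72, 1.38 and 2.19 CPM (5.62 ± 1.52, adjusted p = 0.044). All 3 rested on at most 2 UMIs in the members of an embryonic library.

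The E14 members could be split by their *Lhx1* count. The 84 cells with 1 UMI and the 42 with 2 or more had *Tfap2b* at 1104 (exact Poisson interval 988 to 1231) and 1346 (1179 to 1530) CPM, *Prox1* at 224 (173 to 285) and 334 (253 to 431) CPM, *Onecut3* at 132 (94.0 to 181) and 167 (112 to 240) CPM and *Tnr* at 84.7 (54.8 to 125) and 109 (65.8 to 171) CPM. The intervals of these genes overlapped, which does not show equal levels, and each gene was lower in the cells with 1 UMI. The split was made on *Lhx1*, which the rule read. *Atoh7*, a factor of neurogenic precursors, was at 349 (285 to 423) CPM in cells with 1 UMI and 138 (88.5 to 205) CPM in those with more, and *Ccnd1* at 332 (270 to 405) and 150 (97.7 to 219) CPM. These are counts of 1 library, with no test.

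Cells that resembled horizontal cells but had no *Lhx1* UMI were counted by a definition made after the data had been seen: 0 *Lhx1*, a UMI each of *Onecut1* or *Onecut2*, *Tfap2b* and *Prox1*, and none of the excluded genes. There were 163, 24, 128, 99, 34 and 46 such cells in the order E14, E16, P0, P3 replicate 1, P3 replicate 2 and P6, so the libraries without members held 99 and 46. At E14 they had *Tnr* at 75.8 CPM, *Pmfbp1* at 175 CPM, *Onecut3* at 27.9 CPM and *Lhx1os* at 10.8 CPM, against 93.8, 256, 145 and 85.3 CPM in members. At P0 *Tnr* was at 9.86 CPM, *Onecut3* at 0.986 CPM and *Lhx1os* at 5.91 CPM, against 271, 197 and 714 CPM in members, while *Ptf1a* was at 343 CPM and *Meis2*, an amacrine marker, at 614 CPM against 55.4 and 98.5 CPM. At E14 these cells thus carried *Tnr* near the level of the members, and at P0 they did not.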

How the data were processed

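The authors deposited droplet single-cell UMI counts as gene by cell matrices, aligned to mm10. Per the file headers, Cell Ranger 6.1.2 made 4 of the matrices. The version behind the older layout of E16 and P3 replicate 2 is not given in the sources used here. Genes were joined by Ensembl identifier (27040 shared). Kept cells had more than 300 genes and at most 15% mitochondrial UMIs. Horizontal cells were defined by *Lhx1*, *Onecut1*, *Onecut2* and 4 excluded genes, and these 7 genes were left out before p-values were adjusted. The members and gene lists were chosen with earlier results of these data known. Counts were summed per library and cell group and tested with edgeR 4.0.16 (quasi-likelihood, TMM, filterByExpr, R 4.3.3), at an adjusted p of 0.05. Both sums of a library come from 1 pool of retinas, so the library was a block (the deviations of the member and other sums of a library correlated at 0.176 in E14 and P0). At the planned minimum of 20 members a stage kept 1 library, so stage and interaction were fitted with 10. Without proof of separate litters, p-values measure the spread between libraries, which may be technical. Named genes were list members and, for each comparison, the called genes with the largest folds (15 higher and 10 lower, or 8 each way) at 20 CPM or more and with 1 direction in every library. Shares of cells were compared after thinning to 2000 UMIs. Doublets were called by simulated neighbours and kept, with their removal as an alternative. The scripts were tested on simulated data. DESeq2 1.42.0, other filters, gates and cell minimums and leaving out a library were alternatives. Promoter sequence came from RefSeq and positions from GENCODE. scipy 1.17.1 gave exact intervals. Some genes that the lists count are not reported here by name.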

Additional observations from a re-analysis of the deposited data

Results flagged for a closer look

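The postnatal minus embryonic difference of horizontal cells differed from that of other kept cells, by the interaction term in edgeR, in 30 genes upward and 40 downward. Without the library block no gene passed. Among listed genes the interactions upward on the log2 scale were 4.21 for *Cacna2d3*, 3.97 for *Nefm*, 3.88 for *Onecut3*, 3.86 for *Sez6*, 3.60 for *Tpm3* and 3.50 for *Nefl*. The members' levels of *Onecut3* overlapped between stages, and its level in other cells was lower after birth. Downward they were −4.83 for *Tfap2a*, −3.22 for *Meis2*, −3.22 for *Plxna2*, −3.09 for *Hes5*, −2.99 for *Gngt2* and −2.48 for *Otx2*. *Hes5* (progenitors), *Gngt2* and *Otx2* (photoreceptors) mark other cell types, and their part in the members' sums was not tested.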

How the results depend on the processing

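Counts are given as higher and lower. Against other cells, 487 and 980 became 244 and 342 with DESeq2, 90 and 251 with no replicate block, 247 and 497 with 10 members, 238 and 482 also without called doublets, and, leaving out E14, E16, P0 or P3 replicate 2 in that order, 137, 435, 120 and 185 higher and 201, 867, 182 and 372 lower. Against other cells without the excluded genes 340 were higher and 584 lower, and with 10 members 86 and 95. Against the amacrine gate, 45 and 36 became 15 and 10 with DESeq2, 68 and 58 unfiltered, 0 and 0 with no replicate block (160 at an unadjusted p under 0.05), 17 and 3 with 10 members, 21 and 2 without doublets, 13 and 8 with 2 *Lhx1* UMIs, 22 lower under 4000 genes, and in that order 46, 57, 4 and 3 higher and 21, 46, 0 and 0 lower. Against the ganglion gate, 250 and 497 became 88 and 91 with DESeq2, 7 and 3 with no replicate block, 114 and 328 with 10 members, 127 and 249 under 4000 genes, 112 higher without doublets, and in that order 110, 179, 60 and 91 higher and 302, 436, 171 and 220 lower. Between stages, 5 and 1 became 13 higher with DESeq2, 34 and 25 unfiltered, 20 and 10 under 4000 genes, 1 and 0 without doublets, and in that order 27, 28, 12 and 10 higher and 135, 13, 1 and 18 lower. The interaction's 30 and 40 became 9 and 1 with DESeq2, 0 and 0 with no replicate block (480 unadjusted), 16 higher under 4000 genes, and in that order 35, 25, 14 and 14 higher and 131, 37, 25 and 20 lower. The share of horizontal cells was 0.267% at E14 and 0.101% at E16 with 2 *Lhx1* UMIs, 0.617% and 0.135% thinned, and in P3 replicate 2 0.247% thinned. Unthinned, *Tfap2b* was in 90.5% and 100% of E14 and P0 members, *Prox1* in 53.2% (54.8% at 4000 UMIs) and 80.0%, and *Tnr* in 24.6% and 75.0%. Without E14, with 10 members, the log2 fold change turned to −0.0631 for *Ncald*, −0.10 for *Plxna2*, −0.43 for *Prdm13* and −0.60 for *Sox11*, and *Vim* turned to 0.22 against the ganglion gate. *Sox11* was at −0.0607 against other cells without the excluded genes with 10 members. The comparison with cells without the excluded genes, and settings combined with 10 members, were chosen after seeing the data. The causes were not tested. The stricter gate left too few libraries for a stage or interaction fit. With 55129 to 469012 UMIs in the members of a library, genes under 6.40 to 54.4 CPM could be missed.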
